A study of Mus musculus with 4 samples.

Results

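The probes for the miR-290 and miR-302 clusters, microRNAs best known from mouse embryonic stem cells and not expected in T cells, were examined in activated mouse T cells that had received Foxp3, the master transcription factor of regulatory T cells. Members were all probes whose ID, without its prefix, began with the number of miR-290, miR-291, miR-292, miR-293, miR-294, miR-295 or miR-302. This gave 9 of the 178 probes in the value table, 171 of which measured miRNAs, with 8 probes for the miR-290 cluster and 1 for the miR-302 cluster. The rule used no measured value.

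RNA of Foxp3-transduced activated T cells and RNA of activated T cells that carried the control vector were hybridised together on 2-colour miRNA arrays, 72 h and 96 h being the labelled times. At each time point the Foxp3 RNA was in Cy5 on 1 array, called forward here (replicate 1), and in Cy3 on the other, called reverse (replicate 2). The 4 arrays formed 2 dye-swap pairs. Both arrays of a pair name the same Foxp3 source and were taken as sharing their RNAs, so n was 2 time points. The strain, the age of the mice, the vector, its promoter and the pooling of animals or cultures are not stated in the labels. No label said that the time points came from separate cultures. P-values from fits of the time point averages therefore rest on the spread between these time points, pooled over all probes, which may be technical. P-values from fits of the 4 single arrays, with a dye or time term, rest on the spread among those arrays. Each value is a log ratio of the channels of 1 array, read as log2, and holds no level. Whether any of these miRNAs, or any leukocyte miRNA, was detected in the cells could therefore not be checked, and in bulk RNA fewer cells of a type and less RNA per cell cannot be told apart.

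Mature microRNAs are cut from hairpins, each of which can give a 5p and a 3p arm. Bases 2 to 8 of the mature miRNA, the seed, do most of the pairing with target mRNAs, so miRNAs that share a seed share many predicted targets. In mouse embryonic stem cells the miR-290 cluster is among the most abundant sources of miRNA, and its members speed the passage from G1 to S phase by repressing inhibitors such as Cdkn1a, whereas the miR-302 cluster is most active slightly later, in the epiblast. Both clusters are silenced on differentiation, and members of both promote reprogramming of somatic cells to pluripotency.

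The mature sequences show which of these miRNAs resemble one another. In RefSeq (GRCm38.p6) the forward-strand hairpins of the miR-290 cluster lie at chr7:3218626-3220841 and those of the miR-302 cluster at chr3:127545228-127545807, within the span of the protein-coding gene Larp7 in the gene table. The 3p arms of the member miRNAs follow 5′ to 3′, with the seed in capitals. The RefSeq table used held no sequence for miR-292a-3p and miR-302a-3p, so they are not printed and the seed counts leave them out. Below the 3p arms stand an unmeasured neighbour of Mir302a and 2 members of the miR-17 family, proliferation miRNAs of lymphocytes that were on the array.
miR-290a-3p: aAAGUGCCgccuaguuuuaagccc
miR-291a-3p: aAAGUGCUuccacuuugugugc
miR-293-3p: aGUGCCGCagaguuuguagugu
miR-294-3p: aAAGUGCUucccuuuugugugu
miR-295-3p: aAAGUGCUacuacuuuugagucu
miR-302b-3p: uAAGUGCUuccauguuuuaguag
miR-17-5p: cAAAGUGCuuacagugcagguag
miR-20a-5p: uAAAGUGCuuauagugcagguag

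The seed AAGUGCU was common to miR-291a-3p, miR-294-3p, miR-295-3p and miR-302b-3p, and 5 of the 1679 mature miRNAs in the RefSeq table (0.298%) had it. The 6 letters AAGUGC stood at bases 2 to 7 in 8 of the 1679 (0.476%) and anywhere, on the miRNA strand, in 20 (1.19%). They also stood in miR-17-5p and miR-20a-5p, moved by 1 base, so that those seeds read AAAGUGC. Among the miR-290 cluster 3p arms printed above, the longest unbroken run was the 11 bases AAAGUGCUUCC, shared by miR-291a-3p and miR-294-3p. The run shared by miR-294-3p and miR-17-5p was 9 bases long, AAAGUGCUU. The 5p arms fall into a different group, shown because the probe IDs do not state the arm.
miR-290a-5p: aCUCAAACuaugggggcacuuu
miR-291a-5p: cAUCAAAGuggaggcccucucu
miR-292a-5p: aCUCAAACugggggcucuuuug
miR-293-5p: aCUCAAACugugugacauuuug
miR-294-5p: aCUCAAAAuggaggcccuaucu
miR-295-5p: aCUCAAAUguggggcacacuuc
miR-302a-5p: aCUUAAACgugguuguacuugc

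The 5p arms of Mir290a, Mir292 and Mir293 shared the seed CUCAAAC, which no other mature miRNA of the table had. The platform annotation listed a gene for 5 of the 9 probes, updated through the gene ID to Mir290a (1org-290), Mir293 (1org-293), Mir294 (1org-294), Mir295 (1org-295) and Mir302a (1org-302). It did not list 1org-291-as, 1org-291-s, 1org-292-as and 1org-292-s, which keep their IDs; their endings -s and -as are not defined in the sources used here. Because the arm that each probe targets is not stated, how alike the 9 target sequences are is not known. How far the probes share signal was not tested.

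No source used here states which channel was divided by which. The ratios were read as Cy5 over Cy3 and turned in sign on the reverse arrays. Positive values mean higher with Foxp3 only if that reading holds, and likely higher or likely lower is meant below in that sense. The other reading, in which the authors had already turned the values to Foxp3 over control, is given beside the main results. Over the 171 miRNA probes the 2 arrays of 72 h correlated at r = 0.66 before turning and those of 96 h at r = -0.12, across probes that are not replicates. The arrays also differed in their medians over miRNA probes, which were -0.59 (forward) and -0.83 (reverse) at 72 h, 1.27 (forward) and 0.02 (reverse) at 96 h. The forward array of 96 h lay highest, with 90.6% of the miRNA probes above 0.

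As deposited, all 9 probes lay below 0 on both 72 h arrays, although the dyes were exchanged between them, and all 9 lay above 0 on the forward array of 96 h. Among all miRNA probes, 63.2% were below 0 on both 72 h arrays, and 62.6% had in addition a value above 0 on that 96 h array. On the reverse array of 96 h, 7 of the 9 lay below 0, against 48% of all miRNA probes. In the values that follow, each set of 4 gives the deposited log2 ratio on the 72 h forward, 72 h reverse, 96 h forward and 96 h reverse arrays, in that order.

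Probe 1org-290 (Mir290a, the first hairpin of its cluster) had -0.70, -0.87, 2.25 and 0.14. It was near the array median at 72 h and above it on both 96 h arrays. Probe 1org-291-as had -1.04, -1.17, 1.32 and -0.45, and 1org-291-s had -1.35, -0.79, 1.53 and -0.42. The difference of the first from the second ran from -0.38 to 0.31 over the 4 arrays, with no constant sign.

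Probe 1org-292-as had -1.40, -1.44, 3.76 and 0.35, the widest swing of the 9. Its 3.76 on the 96 h forward array ranked 159 of 171 from the lowest, while its 72 h values ranked 18 and 19. Probe 1org-292-s, of the same number, had -0.59, -0.79, 1.78 and -0.42, close to the array medians at 72 h. The -as probe minus the -s probe gave -0.81 and -0.64 on the 72 h arrays and 1.99 and 0.76 on the 96 h arrays, so the order of the 2 was exchanged between the time points on the deposited scale.

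Probe 1org-293 (Mir293, whose 3p seed differs from that of its neighbours) had -1.04, -1.87, 0.95 and -0.74. Probe 1org-294 (Mir294, which can stand in for Myc in reprogramming) had -1.74, -1.78, 1.42 and -0.20, and ranked 10 and 5 from the lowest at 72 h. Probe 1org-295 (Mir295, the last hairpin of its cluster) had -1.17, -0.98, 0.89 and -0.69. Mir293 and Mir295 lay below the array median on all 4 arrays and Mir294 on all but the 96 h forward array.

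Probe 1org-302 (Mir302a) had -2.24, -1.65, 0.74 and -1.03. It was the lowest of the 9 probes on every array but the 72 h reverse array, where Mir293 and Mir294 were lower. From the lowest of 171 probes it ranked 1 and 8 at 72 h and 47 and 12 at 96 h. Relative to the array medians it stood at -1.65, -0.82, -0.52 and -1.05. Across the 9 probes the SD was 0.51 and 0.43 on the 72 h arrays, 0.93 on the forward and 0.43 on the reverse array of 96 h, against 0.77, 0.83, 1.22 and 0.95 for all miRNA probes.

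**Figure D1:**
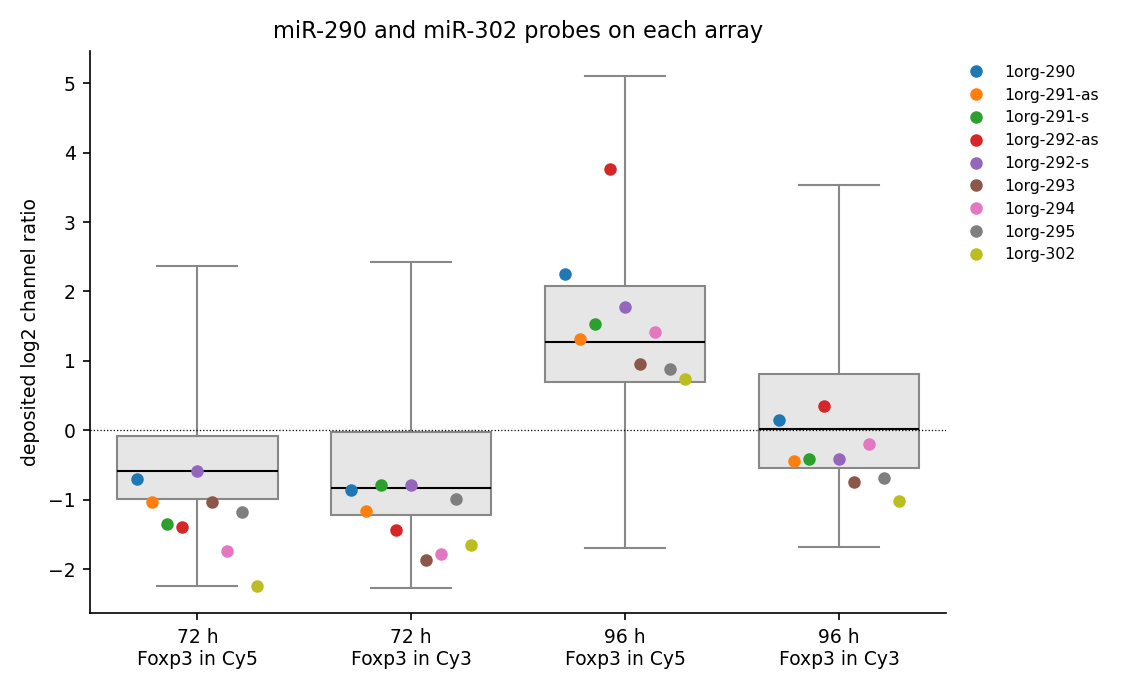
Deposited log2 channel ratios (y axis) of the 9 probes, as coloured points, on the 4 arrays (x axis, labelled by time and by the dye of the Foxp3 RNA), with grey boxes for the quartiles and whiskers for the full range of the 171 miRNA probes and a black line for their median. The points lie below 0 on both 72 h arrays and above 0 on the forward array of 96 h, where 1org-292-as stands at 3.76, and 1org-302 is at or near the low end of the 9 on each array.

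In a dye-swap pair, the mean of the 2 deposited values is the part that kept its sign when the dyes were exchanged, and the mean after turning the reverse array is the part that turned with them. At 72 h the kept part was the larger for all 9 probes. It ran from -1.94 (Mir302a) to -0.69 (1org-292-s), whereas the turned part, which is the Foxp3 over control ratio in the Cy5 over Cy3 reading, ran from -0.29 (Mir302a) to 0.41 (Mir293). At 96 h the turned part ran from 0.79 (Mir295) to 1.71 (1org-292-as), and the kept part from -0.14 (Mir302a) to 2.06 (1org-292-as). The turned part was larger than the kept part in size for 7 of the 9 at 96 h, and smaller for Mir290a (1.05 against 1.20) and 1org-292-as (1.71 against 2.06). If the values had already been turned, the kept part would be the Foxp3 ratio and the turned part the dye part.

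At 72 h, the question was whether any of these miRNAs differed with Foxp3 in both dye orientations. A probe counted as past 1.5-fold at a time point if the average of its 2 arrays was past that size and both arrays had the same sign, so that a single array could stay below it. None of the 9 passed, in either direction, against 2.34% of all miRNA probes on the likely higher side and 5.26% on the likely lower side. After turning, all 9 lay below 0 on the forward and above 0 on the reverse array, such as Mir290a at -0.70 and 0.87 and Mir302a at -2.24 and 1.65. The median of the 9 averages was 0.02, against 0.07 for all miRNA probes, and 6 of 9 lay above 0, against 59.6% of all. In the already turned reading the picture was the opposite. All 9 then passed 1.5-fold on the side lower with Foxp3, with averages from -1.94 to -0.69 and a median of -1.10, against 53.2% of all miRNA probes and a median of -0.67. With 1 replicate per time point, no test was possible. With that reading centred on the miRNA medians, 4 of 9 passed on the lower side (1org-292-as, Mir293, Mir294 and Mir302a), against 14.6% of all.

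At 96 h, all 9 averages lay above 0, against 74.3% of all miRNA probes. The count was 8 of 9 in the already turned reading, against 94.2% of all, and 3 of 9 in that reading centred on the miRNA medians, against 50.9%. The median of the 9 was 0.88 and that of all miRNA probes 0.805. The highest were 1org-292-as at 1.71 (3.27-fold), 1org-292-s at 1.10 (2.14-fold) and Mir290a at 1.05 (2.08-fold). Both 1org-292-as and Mir290a rested on 1 array, with turned values of 3.76 and -0.35 for the former and 2.25 and -0.14 for the latter. The closest agreement between the 2 arrays was that of Mir295, at 0.89 and 0.69, Mir293, at 0.95 and 0.74, and Mir302a, at 0.74 and 1.03. By that rule 7 of the 9 probes passed 1.5-fold, all likely higher and all but 1org-292-as and Mir290a, against 46.2% of all miRNA probes on that side and 5.26% on the other.

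The 96 h values moved with the array medians. Centred on the miRNA median of each array, the 9 averages ran from 0.17 (Mir295) to 1.09 (1org-292-as) with a median of 0.26, against 0.18 for all miRNA probes, and none of the 9 passed 1.5-fold by the same rule, against 17.5% of all likely higher. Centred on the U6 and tRNA probes, all 9 passed, against 63.2% of all. Without the 96 h forward array the median of the 9 was 0.42, against -0.02 for all. Without the 96 h reverse array it was 1.42, against 1.27 for all. In the already turned reading, 2 of the 9 passed higher with Foxp3, 1org-292-as at 2.06 and Mir290a at 1.20, against 33.9% of all, and Mir302a was the 1 member below 0, at -0.14. With that reading centred on the miRNA medians, 1org-292-as passed on the higher side, against 10.5% of all, and Mir302a on the lower side, against 6.43%.

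**Figure D2:**
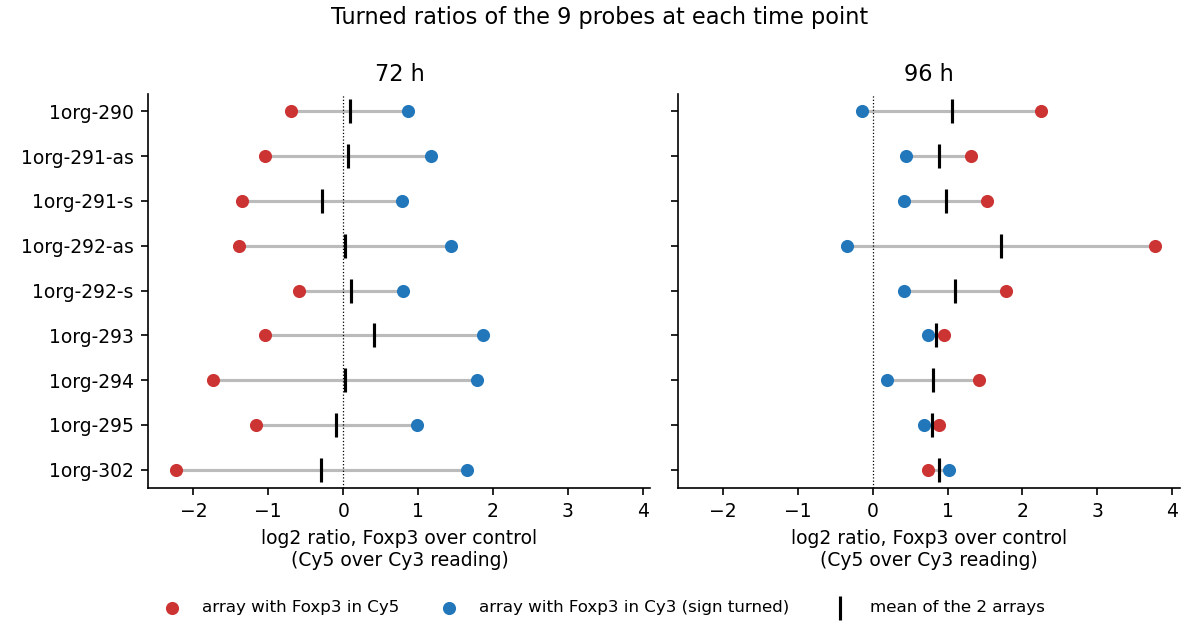
Log2 ratios of Foxp3 over control in the Cy5 over Cy3 reading (x axis) for the 9 probes (y axis) at 72 h and 96 h, with red points for the forward array (Foxp3 in Cy5), blue points for the reverse array (Foxp3 in Cy3, sign turned) and black bars for their mean. The 2 arrays of 72 h lie on opposite sides of 0 for all 9 probes, and at 96 h both lie above 0 for 7 of them.

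Over both time points, no member passed the limma test (adjusted p from 0.545 to 0.688, Benjamini-Hochberg over 171 probes), and no other probe did either (0%). At an unadjusted limma p under 0.05 there were 0 of the 9 members, against 16 of 171 probes (9.36%). The mean of every member was above 0, from 0.29 to 0.87, with a median of 0.47 against 0.45 for all miRNA probes. The highest was 1org-292-as at 0.87 ± 1.19 (SD, n = 2). Its 95% interval was -0.07 to 1.80, from a normal quantile and the standard error of 0.479 pooled over all probes. That error takes the probes as independent, although whole arrays differed in their medians, so the interval may be too narrow. Mir293 had 0.63 ± 0.31 (SD, n = 2), and 1org-292-s had 0.60 ± 0.70 (SD, n = 2).

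Mir290a had a mean of 0.57 ± 0.69 (SD, n = 2), 1org-291-as one of 0.47 ± 0.58 and Mir294 one of 0.41 ± 0.56. The lowest were 1org-291-s at 0.35 ± 0.89, Mir295 at 0.35 ± 0.62 and Mir302a at 0.29 ± 0.83 (SD, n = 2). Except for Mir293 the SD exceeded the mean for each of the 9. No member had 1 sign on all 4 arrays, against 7.6% of all miRNA probes, and none in the already turned reading, against 7.02%. A limma model of the 4 arrays with a dye term, which takes the technical pairs as replicates, gave the same means, called no member and no other probe, and left 1 of 171 probes with an unadjusted p under 0.05.

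In the already turned reading the means ran from -1.04 (Mir302a) to 0.32 (1org-292-as), with 7 of 9 below 0 and a median of -0.33 against 0.11 for all miRNA probes. No member passed limma (adjusted p = 0.998 for each), against 1.75% of all probes. With the miRNA median of each array subtracted as well, Mir302a was at -1.01 ± 0.32 (SD, n = 2), the only member with an unadjusted limma p under 0.05 (0.00804, against 11.1% of all probes), and its adjusted p was 0.153. In that treatment 3 of the 9, Mir293, Mir295 and Mir302a, had 1 sign on all 4 arrays, against 19.9% of all probes, and none passed the adjusted limma test, against 4.09%. Without the 72 h forward array, limma in the Cy5 over Cy3 reading called all 9 members (adjusted p of 0.0246 to 0.0299) among 94 of 171 probes (55%), and without the 72 h reverse array it called none at all, with 0 of 171 probes under an unadjusted p of 0.05.

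**Figure D3:**
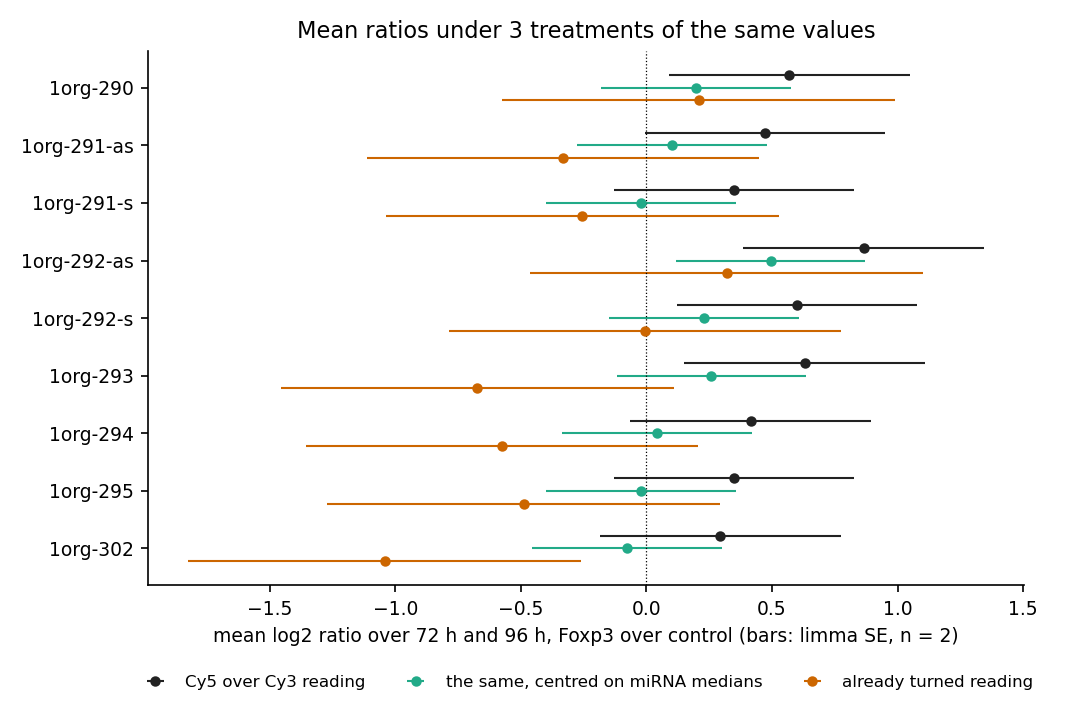
Mean log2 ratios of Foxp3 over control over the 72 h and 96 h averages (x axis; bars are limma standard errors, n = 2) for the 9 probes (y axis) in the Cy5 over Cy3 reading (black), the same centred on the miRNA medians (green) and the already turned reading (orange). All 9 black points lie between 0.29 and 0.87, and the orange points of 7 probes lie below 0.

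The time points were compared through a Foxp3 by time term in limma over the 4 arrays. The 96 h ratio was above the 72 h ratio for all 9 probes, by 0.43 (Mir293) to 1.69 (1org-292-as), and none passed (limma adjusted p = 0.991 for each), against 0% of all probes with either an adjusted or an unadjusted p under 0.05. The standard error of each difference was 1.56, so the test could show only very large differences. None of the 9 differed by 1.5-fold with no overlap of the arrays, against 4.68% of all miRNA probes higher and 2.34% lower at 96 h. Centred on the miRNA medians 1 of the 9, 1org-291-s, was higher at 96 h, against 13.5% of all, and centred on U6 and tRNA 4 were, against 45.6%. In the already turned reading all 9 were higher at 96 h by that measure, against 67.8% of all (3 of 9 against 12.9% when also centred on the miRNA medians), and the limma time term called 1 member, 1org-292-as, with a difference of 3.47 ± 0.96 (SE; adjusted p = 0.034), against 1.17% of all probes. The 2 arrays of a time point were taken as sharing their RNAs, so this fit treats technical pairs as replicates.

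The miR-17 family, which holds AAGUGC 1 base further in, was set beside the 9 probes. Its 5 measured probes were 1org-106a, 1org-106b, Mir20a, Mir93 and 2org-17-5p. In the Cy5 over Cy3 reading all 5 lay below 0 at 72 h and at 96 h, against 69 and 44 of 171 miRNA probes. Centred on the miRNA medians all 5 again did, against 99 and 72 of 171. Centred on U6 and tRNA 3 of the 5 lay above 0 at 96 h, against 148 of 171. Without centring, none of the 5 passed limma in the Cy5 over Cy3 reading, where no probe did. Uncentred, their medians were -0.24 and -0.27, where the embryonic stem cell probes had 0.02 and 0.88 and all miRNA probes 0.07 and 0.805. Mir20a had deposited values of -0.03, 1.24, -0.41 and 1.77, and so was higher on the reverse than on the forward array of each time point, where Mir294 had -1.74, -1.78, 1.42 and -0.20. This contrast of 2 lists chosen with earlier results known was not tested. In the already turned reading the medians of the miR-17 family were -0.04 and 0.68, against -1.10 and 0.56. Of its probes 2 of 5 then lay above 0 at 72 h and all 5 at 96 h, against 42 and 161 of 171. With that reading centred on the miRNA medians, 5 and 3 of the 5 did, against 88 and 87 of 171.

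Other miRNAs typical of tissues outside the blood system were set beside the 9 by probe ID. At 96 h the median log2 ratio in the Cy5 over Cy3 reading was 0.97 for 5 neural probes, 0.91 for 4 muscle probes, 0.89 for the 1 liver probe, 0.85 for 6 epithelial probes and 1.17 for 9 stromal and endothelial probes, against 0.88 for the embryonic stem cell probes and 0.20 for 9 leukocyte probes (miR-142, miR-146, miR-150, miR-155 and miR-181 by number). The median of all miRNA probes was 0.805, and 74.3% of them lay above 0. All 25 probes of the other tissues lay above 0 at 96 h, as all 9 embryonic stem cell probes did, against 5 of 9 leukocyte probes. Centred on the miRNA medians, 23 of the 25, all 9 embryonic stem cell probes and 1 of 9 leukocyte probes lay above 0, against 57.9% of all miRNA probes. Taken as already turned, 22 of 25, 8 of 9 and all 9 did, against 94.2% of all. The medians in that reading were 0.82, 0.50, -0.79, 2.70 and 0.99 for the other tissues in the same order. They were 0.56 for the 9 and 0.58 for leukocyte probes, against 0.65 for all miRNA probes. The gap between the 9 and the leukocyte probes at 96 h was thus seen in the Cy5 over Cy3 reading and not in the other. At 72 h the medians were 0.20, 0.17, 0.10, 0.09 and 0.17 for the other tissues, 0.07 for leukocyte probes and 0.02 for the 9, against 0.07 for all miRNA probes. Taken as already turned they were -0.67, -1.03, -1.72, 0.31 and -1.21, with -0.07 for leukocyte probes and -1.10 for the 9, against -0.67 for all miRNA probes. In the uncentred Cy5 over Cy3 reading limma called no probe at all, so none of these lists could hold a called probe there. Calls within the lists were not examined with centring on the miRNA medians, where 1.17% of all probes passed. Nor were they examined in the already turned reading, where 1.75% of all probes passed.

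On the deposited scale, which needs no choice of direction, the profile of the 9 (their medians of -1.17, -1.17, 1.42 and -0.42) was matched most closely by 1org-1b, 1org-133, 1org-184, 1org-193 (Mir193a) and 1org-203 (Mir203). Their root mean square differences from it over the 4 arrays were 0.13, 0.13, 0.17, 0.21 and 0.22, against a median of 0.87 over the 162 other miRNA probes. The IDs 1org-1b and 1org-133 carry the numbers of muscle miRNAs, and Mir203 is a miRNA of the epidermis. The 6 epithelial probes had deposited medians of 0.47, 0.31, 3.755 and 1.66, unlike this profile. The 4 muscle probes had -0.85, -1.145, 1.365 and -0.36. Probe 1org-133 had -1.33, -1.28, 1.38 and -0.26. Of the 9 themselves 1org-291-as was the closest to their median profile, at 0.08, and 1org-292-as the farthest, at 1.25, farther than 119 of the 162 other probes.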

How the data were processed

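The authors' deposited value table held 1 ratio per probe and array, taken as log2, for 178 probes on 4 arrays, none missing. The sources used here give no scanner, background correction, normalization, centring or direction, and natural logs remain possible, so folds rest on base 2. Reverse arrays, those with the Foxp3 RNA in Cy3 per the labels, were turned in sign, and forward and reverse values were averaged per time point. An intercept-only fit (limma 3.58.1, R 4.3.3) over the 171 miRNA probes had 1 residual degree of freedom, a variance pooled over all probes (SD 0.677) and Benjamini-Hochberg adjustment, with calls at an adjusted p of 0.05. It was tested on simulated data. The 7 control RNAs stayed out of the fit.

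Named were all members, the 5 probes nearest to their median profile and examples of the miR-17 family. The members, lists and rules were chosen with earlier results of these data known. Alternatives were the other sign reading, subtraction of each array's miRNA median or of its U6 and tRNA median, a dye term, a 2-fold threshold, natural logs and each array left out. The already turned reading with centring was added after seeing the data. Having only 4 arrays limits precision. Mature sequences and positions are from RefSeq, GRCm38.p6.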

Additional observations from a re-analysis of the deposited data

How the results depend on the processing

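The already turned reading changed the number of miRNA probes called by limma from 0 to 3. Members past 1.5-fold went from 0 to 9 at 72 h (53.2% of all probes lower) and from 7 to 2 at 96 h (33.9% higher). Those apart between the time points went from 0 to 9 (67.8% of all probes higher at 96 h). Centring on the miRNA medians gave 2 probes called and 0 members past 1.5-fold at 96 h, against 17.5% of all probes higher and 25.1% lower. It gave 1 member apart between time points, against 13.5% of all higher and 10.5% lower at 96 h. Centring on U6 and tRNA gave 4 apart, against 45.6% of all probes higher at 96 h. With the already turned reading centred on the miRNA medians, 7 probes were called and the 96 h median was -0.086. At 72 h 4 members passed 1.5-fold, all lower (14.6% of all probes), and at 96 h 2 passed (10.5% of all higher, 6.43% lower). There were 3 members with 1 sign on all 4 arrays (19.9% of all) and 3 apart between time points (12.9% of all higher at 96 h). A 2-fold threshold left 1 member at 96 h, and natural logs left the counts at 0 and 7. Shares of all miRNA probes are not given for these settings, so these counts cannot be read as particular to the members. No alternative with all 4 arrays brought a member past limma's threshold over both time points.

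The mean turned negative in the already turned reading for 1org-291-as (-0.33), 1org-291-s (-0.26), 1org-292-s (-0.0062), Mir293 (-0.67), Mir294 (-0.58), Mir295 (-0.49) and Mir302a (-1.04). With centring on the miRNA medians alone it did so for 1org-291-s (-0.022), Mir295 (-0.023) and Mir302a (-0.076). With both it did so for 1org-291-as (-0.30), 1org-291-s (-0.22), Mir293 (-0.64), Mir294 (-0.54), Mir295 (-0.46) and Mir302a (-1.01). The dye term and the centring on U6 and tRNA turned none.

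Leaving out each array in turn gave 0 to 9 members and 0 to 94 probes called, 0 to 9 members past 1.5-fold at 72 h, 3 to 9 at 96 h, 0 to 7 with 1 sign on all remaining arrays and 0 to 9 apart between time points. The means then ran from -0.029 to 1.17 for Mir290a, -0.078 to 1.02 for 1org-291-as, -0.19 to 0.88 for 1org-291-s, -0.16 to 1.89 for 1org-292-as, 0.25 to 0.95 for 1org-292-s, -0.097 to 1.36 for Mir293, -0.47 to 1.30 for Mir294, -0.19 to 0.89 for Mir295 and -0.68 to 1.27 for Mir302a. Shares of all miRNA probes are not given for the counts with an array left out. Those counts therefore cannot be read as particular to the members. A time point left with 1 array keeps its dye effect, and the causes of the changes above were not tested. No paired analysis was possible because the labels number the arrays singly and each pair was already taken as sharing its RNAs. The number of arrays and the unknown signal over background limit every value.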
